A study of Mus musculus with 9 samples.

Results

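Wild-type mouse macrophages were profiled for RNA and for 5-hydroxymethylcytosine (5hmC), and the 5hmC of each gene was set against the level of its RNA. The account rests on 5 of the 9 samples of the study: 3 libraries of ribosomal-RNA-depleted total RNA and 2 libraries of DNA enriched through a biotin tag on 5hmC. All 5 came from passage 0 macrophages of wild-type genotype cultured with M-CSF, which supports the survival and differentiation of macrophages. The other 4 samples carried a Tet2 knockout and were not used. The sources used here do not give strain, sex, age or tissue of origin. They also leave unstated whether replicates were different mice or cultures, so the spread between libraries may be technical. A gene was counted as carrying 5hmC when its body, from annotated start to annotated end on GRCm38, overlapped a peak whose name showed that it was called in the merged wild-type libraries. Such peaks numbered 8000 of 9151 listed, and 35122 of the 47731 genes in the RNA table had a position. The wild-type call numbers in the peak names reach 56360 while 8001 of them appear, so a gene without a listed peak may still have had a call that is not in the list.

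5hmC is made when an enzyme of the TET family (TET1, TET2 or TET3) oxidises 5-methylcytosine, the methyl mark that cells place mostly on cytosines followed by guanine (CpG). It can be an intermediate on the way back to unmodified cytosine, or it can persist. In many differentiated cell types it is known to lie in the bodies of transcribed genes and near enhancers, and to be scarce at CpG-rich promoters, which usually lack methylation. A bulk enrichment assay reports where tagged DNA accumulates and does not give the fraction of cytosines modified at a site.

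The RNA libraries held 17569441, 51355576 and 56394358 counts in genes, so a count of 0 allowed a level of up to 0.171, 0.0584 and 0.0532 CPM (counts per 1000000 counts in genes) in replicates 1, 2 and 3. The 5hmC libraries were far shallower, with 40183 and 207599 counts in the wild-type-named peaks and a median of 4 and 23 counts per peak. Limits and intervals cover counting error only. The 5hmC replicates correlated across peaks with a Spearman rho of 0.495, and across the 3526 genes with a peak, per kb of gene, with a rho of 0.882. The macrophage identity of the RNA was clear from its defining genes: 10 of 10 were at a mean of at least 10 CPM, and they summed to 18593, 16333 and 15007 CPM. RNA replicate 3 also held stromal transcripts. The 14 stromal and osteoblast markers summed to 7.68, 7.75 and 6235 CPM in replicates 1, 2 and 3, and in such bulk libraries fewer cells of a type and less RNA per cell cannot be told apart. The bins by RNA level, the length classes, the profile at gene starts and the chromosome X comparison are therefore also given without that library, in part or in full. The promoter windows and gene lists use the mean of all 3.

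5hmC was found more often in genes with more RNA. Of all 35122 genes, 3526 overlapped a wild-type peak, a background of 10%. Among genes with no RNA count in any library the share was 0.992% (139 of 14015 genes; SD 0.527 over bins made from each RNA library alone, n = 3). It was 4.85% (SD 0.735) for genes above 0 and under 0.1 CPM, 7.94% (SD 0.194) from 0.1 to 1 CPM and 12.8% (SD 1.19) from 1 to 10 CPM. In the 6913 genes from 10 to 100 CPM it was 23.8% (SD 0.485), and in the 2134 genes of at least 100 CPM it was 36.7% (784 genes; SD 2.02). Every step between neighbouring bins was upward. Each SD is a spread around the mean of the 3 single-library shares, not around the share given. That mean was 1.65% with no RNA count and 8.57% from 0.1 to 1 CPM. With bins made from 1 RNA library at a time, the top bin held 38.4%, 36.7% and 34.3% genes with 5hmC and the 0 bin 2.23%, 1.52% and 1.20%, so the ranges of these 2 bins over libraries did not overlap. Without RNA replicate 3, which carried the stromal RNA, the shares were 37.8% in the top bin and 1.45% in the 0 bin.

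**Figure D1:**
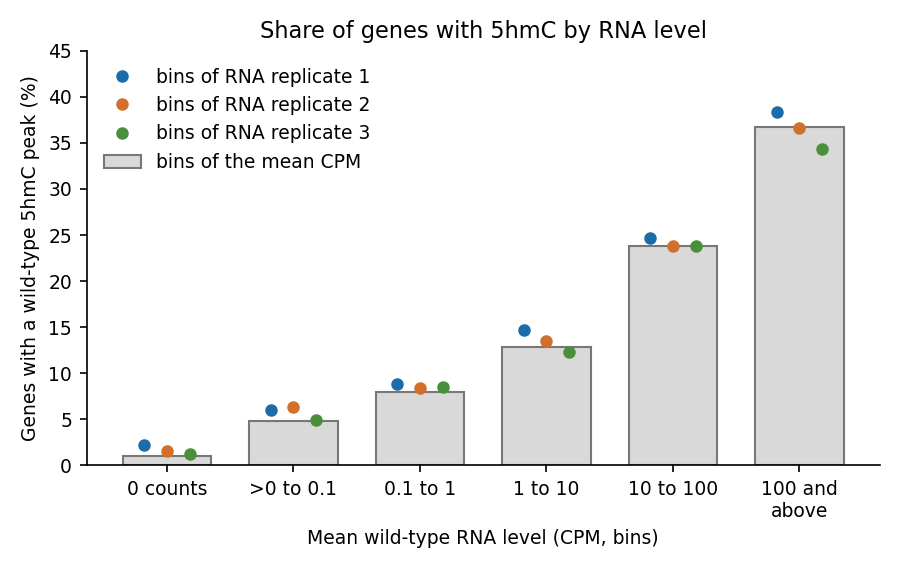
Share of genes whose body overlaps a wild-type 5hmC peak (y axis, percent) in 6 bins of RNA level (x axis, CPM). Grey bars use the mean CPM of the 3 RNA libraries and each point uses bins made from 1 RNA library. The bars climb from 0.992% to 36.7%. In the 0 bin all 3 points lie above the bar, at 2.23%, 1.52% and 1.20%.

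The amount of 5hmC per kb followed the same order. It is given as counts in peaks per kb of gene, per 100000 counts in wild-type peaks of that library, summed over all genes of a bin with or without a peak. In genes with no RNA count it was 0.00673 in 5hmC replicate 1 and 0.00780 in replicate 2. It was 0.0172 and 0.0175 above 0 and under 0.1 CPM, 0.0266 and 0.0286 from 0.1 to 1 CPM, and 0.0392 and 0.0406 from 1 to 10 CPM. From 10 to 100 CPM it reached 0.0936 and 0.0983, and at 100 CPM and above 0.155 and 0.161. The replicates thus lay closer to each other than to the neighbouring bin at each step. Both were counted in the same peaks, called in the merged libraries, so this closeness is not independent support. The top bin was 22.9-fold and 20.7-fold above genes with no count, and 8.98-fold and 9.19-fold above genes just above 0. The step into the bin of 10 to 100 CPM was 2.39-fold and 2.42-fold, and the last step was 1.65-fold and 1.64-fold. Without RNA replicate 3 the mean of both 5hmC libraries was 0.00714 with no RNA count and 0.159 in the top bin.

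More RNA went with more peaks in a bin and, by less, with higher ones. The number of peaks per Mb of gene was 0.736 in genes with no RNA count and 12 at 100 CPM and above, a 16.3-fold range. The median peak in 5hmC replicate 2 held 20 counts when its gene had no RNA count and 25 counts when its gene was in the top bin, and in replicate 1 it held 3 and 5 counts. Among genes of all lengths that had a peak, the median 5hmC per kb showed no upward order. It was 0.315 and 0.360 (replicates 1 and 2) in genes with no RNA count, 0.188 and 0.216 from 1 to 10 CPM, and 0.266 and 0.279 at 100 CPM and above. Of the 3526 genes with 5hmC, 2514 (71.3%) had 1 peak, so their value per kb falls as the gene lengthens. The Spearman rho of gene length and 5hmC per kb over these genes was -0.722 and -0.809. Within long genes the median did differ by RNA level, though on few silent genes. With a peak and at least 200 kb it was 0.0340 and 0.0309 with no RNA count (11 genes). At 100 CPM and above it was 0.130 and 0.135 (77 genes). At 100 to 200 kb it was 0.0407 and 0.0752 (8 genes) against 0.172 and 0.180 (167 genes). At 5 to 20 kb it was 0.916 and 0.832 against 1.09 and 1.04. Under 5 kb the order was the reverse, at 6.11 and 8.89 (30 genes) against 3.46 and 3.07 (10 genes).

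**Figure D2:**
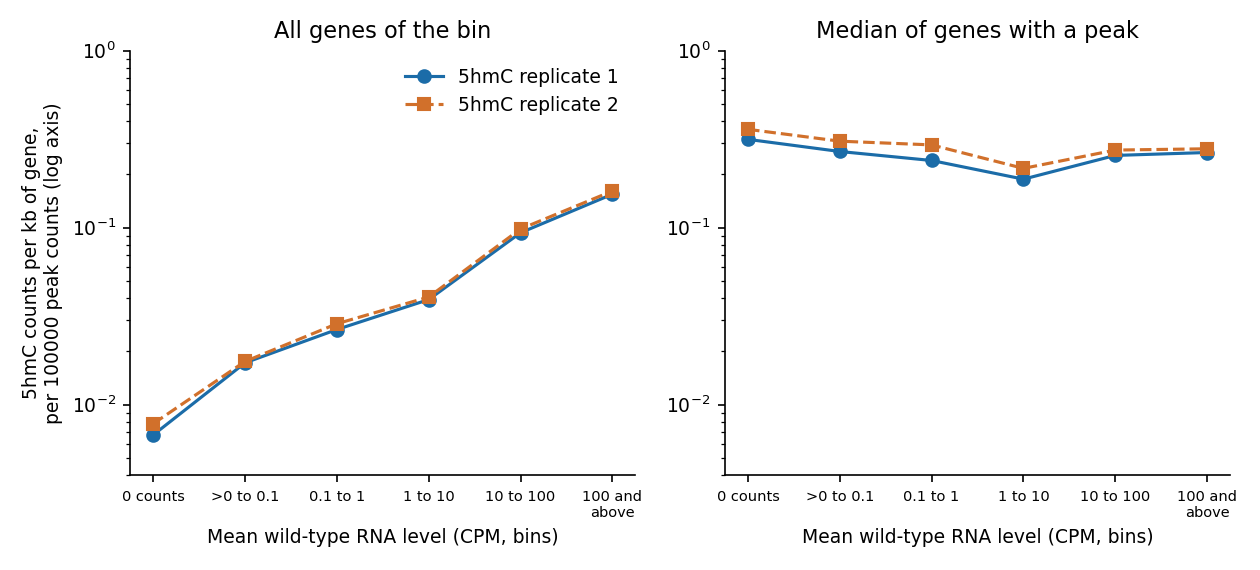
5hmC counts per kb of gene, per 100000 counts in wild-type peaks (y axes, log scale), by bin of mean CPM (x axes), for 5hmC replicate 1 (circles) and replicate 2 (squares). Left, all genes of a bin, which climb to 0.155 and 0.161; right, the median of the genes that have a peak, which starts at 0.315 and 0.360 and ends at 0.266 and 0.279.

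Seen from the other side, genes with 5hmC were mostly transcribed. Their median RNA level was 26.6, 34.7 and 32.4 CPM in RNA replicates 1, 2 and 3, against 0, 0 and 0.0177 CPM for the 31596 genes without a peak. In all, 68.8% of genes with 5hmC and 21.0% of those without were at a mean of at least 10 CPM, while 3.94% and 43.9% had no RNA count. Among genes of at least 1 CPM the medians were 48.6 CPM with 5hmC (2853 genes) and 23.2 CPM without (9519 genes). Genes with more peaks had more RNA and were longer. The median was 25.9 CPM and 40.8 kb for genes with 1 peak, 43.5 CPM and 85.0 kb for 2 peaks, 62.4 CPM and 133 kb for 3 peaks, and 88.5 CPM and 296 kb for the 51 genes with 6 or more.

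Gene length moved with both measures. The median length was 54.4 kb for genes with 5hmC and 5.49 kb for genes without, and it went from 1.16 kb in genes with no RNA count to 30.6 kb in genes of at least 100 CPM. Across genes the Spearman rho of mean CPM and length was 0.507. CPM is not divided by transcript length, since exon lengths were not used here, so a long transcript reaches a bin with fewer molecules than a short one. The comparison was therefore repeated among genes of like length.

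The share with 5hmC rose with RNA level at each step in every length class from 5 kb upward. In genes of at least 200 kb the share with 5hmC was 6.63% with no RNA count, 15.4% above 0 and under 0.1 CPM, 26.3% from 0.1 to 1 CPM, 39.4% from 1 to 10 CPM and 74.1% from 10 to 100 CPM. At 100 CPM and above it was 91.7% (77 of 84 genes; SD 1.56 over bins of each RNA library, n = 3). The bins between depended on the library. With bins of RNA replicates 1, 2 and 3 in turn, the share was 33.3%, 28.8% and 13.8% above 0 and under 0.1 CPM, 43.2%, 39.8% and 26.3% from 0.1 to 1 CPM, and 54.2%, 55.8% and 38.5% from 1 to 10 CPM. Replicate 3, the library with stromal RNA, was the lowest in each. Without it the 6 shares were 6.67%, 27.9%, 43.8%, 54.4%, 78.2% and 94.0%, so the order was the same. Nearly all long, well transcribed genes thus carried 5hmC. Between genes with no count and the top bin the share went from 4.97% to 70.8% at 100 to 200 kb, from 5.87% to 58.4% at 50 to 100 kb, from 3.56% to 33.5% at 20 to 50 kb and from 0.951% to 13.5% at 5 to 20 kb. Under 5 kb it went from 0.313% to 4.69%, with 1 step downward, from 1.4% (0.1 to 1 CPM) to 0.899% (1 to 10 CPM).

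**Figure D3:**
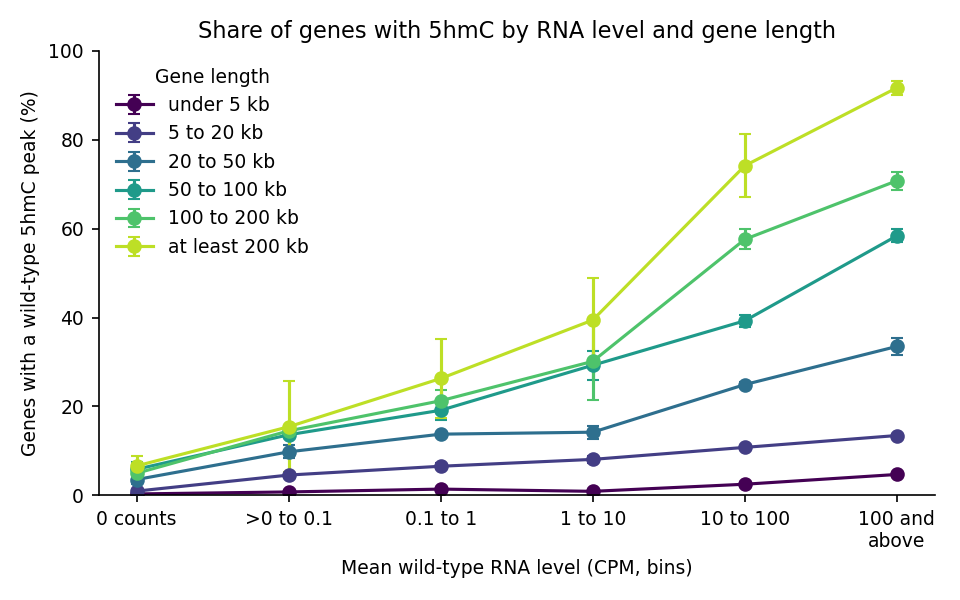
Share of genes with a wild-type 5hmC peak (y axis, percent) by bin of mean CPM (x axis), with 1 line per class of gene length. Points use the mean CPM of 3 RNA libraries and bars are the SD over bins made from each library; the line for genes of at least 200 kb goes from 6.63% to 91.7% and that for genes under 5 kb from 0.313% to 4.69%.

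Per kb, silent long genes were the poorest in 5hmC. In genes of at least 200 kb the value was 0.00207 and 0.00212 (replicates 1 and 2) with no RNA count and 0.139 and 0.143 at 100 CPM and above, a 67.3-fold and 67.4-fold range. In genes of 20 to 50 kb the range was 13.6-fold and 13.5-fold, from 0.0114 and 0.0131 to 0.155 and 0.177. That class had 1 downward step in both libraries, from 0.0536 and 0.0568 (0.1 to 1 CPM) to 0.0502 and 0.0554 (1 to 10 CPM). Without RNA replicate 3 the same bins were at 0.0528 and 0.0559 and then 0.0593 and 0.0649, with no downward step. In the top bin the classes from 5 kb upward lay within 0.139 to 0.177 in both libraries, so the wide range of long genes came with low values at the silent end. The class of at least 200 kb, taken without RNA replicate 3, went from 0.00186 and 0.00179 to 0.133 and 0.137. Under 5 kb the libraries parted in the top bin, at 0.411 and 0.233. That class holds 10 peaks, and 1 of them, in the lysozyme gene Lyz2, had 46 of the 40183 and 61 of the 207599 counts.

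Among the 11081 genes of at least 20 kb the background share with 5hmC was 25.9%. In finer bins of these genes the share was 13.5% under 10 CPM, 32.5% from 10 to 30 CPM, 38.8% from 30 to 100 CPM, 51.1% from 100 to 300 CPM, 48.3% from 300 to 1000 CPM and 71.0% at 1000 CPM and above (22 of 31 genes). The share therefore did not climb at each step above 100 CPM. The last 3 bins were at 52.0%, 52.0% and 67.6% (23 of 34 genes) without RNA replicate 3. 5hmC per kb did, from 0.141 and 0.149 (100 to 300 CPM) through 0.195 and 0.202 (300 to 1000 CPM) to 0.311 and 0.324 (1000 CPM and above). Over all genes the Spearman rho of CPM and 5hmC per kb was 0.337 to 0.348 in the 6 pairs of 1 RNA and 1 5hmC library. It was 0.339 to 0.365 in genes of at least 20 kb. Among genes with a peak it was 0.0086 to 0.0335, and 0.169 to 0.183 when these were at least 20 kb long. Genes within a pair share both libraries and are not independent, so these values are descriptions.

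Within long transcribed genes the first kb was poor in peaks. The 4125 genes of at least 50 kb with a known strand were lined up at their start, and 2029 of them were at a mean of at least 10 CPM. Over the first 1 kb of these 2029 genes lay 5 peaks, 2.46 per Mb (exact 95% Poisson interval 0.800 to 5.75). Over the next 1 kb lay 33 peaks, 16.3 per Mb (11.2 to 22.8). The intervals of these 2 stretches did not overlap. From 2 to 5 kb the value was 10.7 per Mb (8.24 to 13.6), from 20 to 50 kb 9.31 per Mb (8.56 to 10.1), and in the 2 kb before the start 8.38 per Mb (5.80 to 11.7). Counts in these peaks were 0.0343 and 0.0337 per kb in the first 1 kb and 0.200 and 0.192 in the second (5hmC replicates 1 and 2). Both libraries were counted in the same peaks, called in the merged libraries, so they are not separate support for the step. Without RNA replicate 3, 1934 genes were at 10 CPM or more, with 5 peaks in the first 1 kb and 32 in the second. In the 557 long genes with no RNA count there were no peaks from 2 kb before to 2 kb after the start, and 0.539 per Mb from 20 to 50 kb. The upper Poisson limit was 3.31 per Mb in the 2 kb before the start and 6.62 in the first and in the second 1 kb. These stretches thus do not show a shortage of peaks at silent starts.

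**Figure D4:**
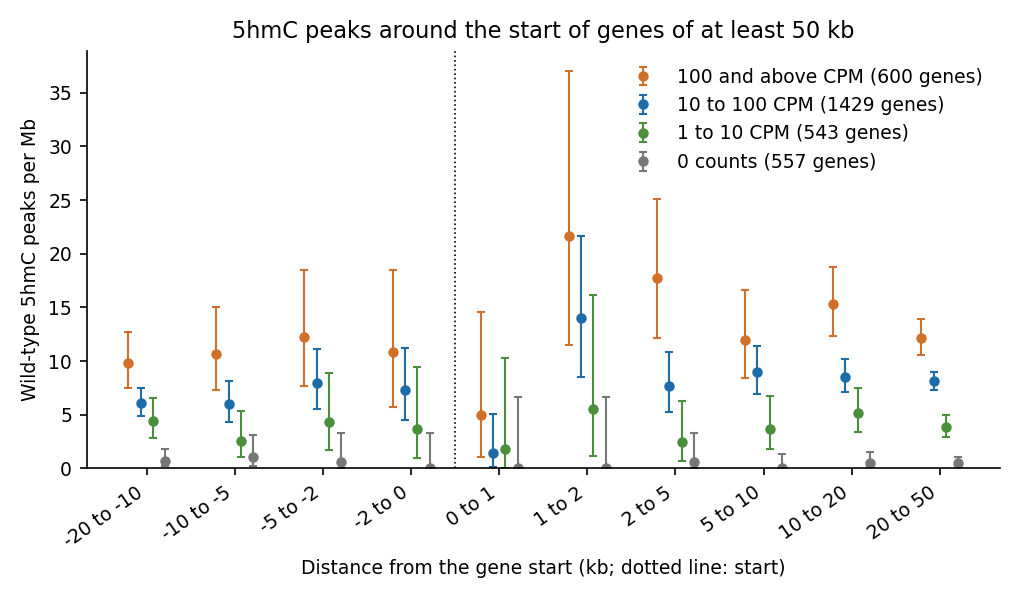
Wild-type 5hmC peaks per Mb (y axis) by distance from the gene start (x axis, kb, stretches of unequal length; dotted line at the start) in genes of at least 50 kb, by bin of mean CPM. Points are peaks per Mb with exact 95% Poisson intervals for counting error; genes of at least 100 CPM go from 5.00 in the first 1 kb to 21.7 in the second, and genes with no RNA count stay at or below 1.08 throughout.

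The bases just before the start were examined in the promoter sequences of RefSeq (GRCm38.p6), windows of 300 bases that run from 250 before to 50 after each annotated start. The windows cover 19745 genes of the RNA table, 3089 of them with at least 2 windows, and some starts lie inside the gene body. Of 32851 windows, 99 overlapped a wild-type peak. Among the 24058 windows matched to a gene of the RNA table the share was 0.0772% in genes with no RNA count, highest at 0.648% from 0.1 to 1 CPM, and 0.134% (3 of 2244) at 100 CPM and above. The order of the gene bodies was thus not seen at the starts. At the outermost start of the gene the share was 0.219% (28 of 12807 windows), and at other starts 0.231% (26 of 11251). None of the 973 outermost starts of genes at 100 CPM and above overlapped a peak, which allows a share of up to 0.308%. For the 600 genes of at least 50 kb and at least 100 CPM, windows were also placed at the start of the annotated gene body. That start need not be a RefSeq promoter start, so these windows are another set. Of them 1 (0.167%) overlapped a peak. Windows of the same length placed inside the gene overlapped a peak in 11 cases at 2 kb (1.83%), 4 at 5 kb (0.667%), 6 at 10 kb (1%) and 5 at 20 kb (0.833%), so the start was lowest but on few peaks. CpG was counted as the letters CG on the given strand, which reads the same on the other. Windows with a peak held a median of 6 and a mean of 6.03 CpG, and windows without a median of 7 and a mean of 12.4. The medians were thus close and the difference lay in the CpG-rich windows: 2.02% of windows with a peak and 26.6% of those without held 20 or more. The CpG content of the first listed window of a gene went with little difference in the gene body. In genes of at least 20 kb and 100 CPM, 55.4%, 55.8%, 46.7% and 50.9% had 5hmC when the window held under 4, 4 to 9, 10 to 19, and 20 or more CpG.

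The 250 bases before an annotated start are printed for 6 transcribed genes, chosen after their values were seen, to show the CpG content of starts with and without 5hmC. Each runs 5′ to 3′ on the strand of the gene, with CpG in capitals. A peak covered all 250 bases in Arap1 (chr7:101385276-101385525, plus strand), St6gal1 (chr16:23290220-23290469, plus strand), Fblim1 (chr4:141606053-141606302, minus strand) and Csf2ra (chr19:61228419-61228668, minus strand). These hold 5, 5, 7 and 17 CpG. The starts of Arap1 and St6gal1 are inner ones, 37.6 and 65.7 kb inside the gene body, that of Fblim1 is the outermost, and that of Csf2ra lies 0.043 kb from the outermost end. No peak overlapped the bases before the outermost start of Lpp (chr16:24393100-24393349, plus strand, 18 CpG), or before the outermost listed start of Foxp1 (chr6:99520994-99521243, minus strand, 11 CpG), which lies 1.75 kb inside the annotated gene body. Lpp and Foxp1 had the most peaks in their bodies.
Arap1: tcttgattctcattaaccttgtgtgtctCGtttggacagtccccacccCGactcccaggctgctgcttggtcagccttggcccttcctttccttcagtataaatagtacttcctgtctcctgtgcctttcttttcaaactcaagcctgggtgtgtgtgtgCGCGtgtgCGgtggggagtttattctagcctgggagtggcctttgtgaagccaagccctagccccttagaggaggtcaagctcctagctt
St6gal1: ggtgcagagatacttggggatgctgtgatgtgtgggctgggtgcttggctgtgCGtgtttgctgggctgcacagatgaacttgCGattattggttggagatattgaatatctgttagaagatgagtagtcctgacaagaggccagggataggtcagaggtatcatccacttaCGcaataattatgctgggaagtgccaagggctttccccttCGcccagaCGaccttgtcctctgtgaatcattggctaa
Fblim1: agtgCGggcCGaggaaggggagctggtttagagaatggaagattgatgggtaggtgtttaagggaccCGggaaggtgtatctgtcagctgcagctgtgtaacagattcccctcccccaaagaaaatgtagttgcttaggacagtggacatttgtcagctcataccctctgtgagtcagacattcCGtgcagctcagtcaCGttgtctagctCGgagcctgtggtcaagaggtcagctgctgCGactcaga
Csf2ra: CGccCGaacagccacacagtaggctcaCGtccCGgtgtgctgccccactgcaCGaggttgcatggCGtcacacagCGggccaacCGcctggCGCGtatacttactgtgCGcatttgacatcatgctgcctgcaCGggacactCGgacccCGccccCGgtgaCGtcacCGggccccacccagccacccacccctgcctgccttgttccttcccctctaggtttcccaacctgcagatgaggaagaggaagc
Lpp: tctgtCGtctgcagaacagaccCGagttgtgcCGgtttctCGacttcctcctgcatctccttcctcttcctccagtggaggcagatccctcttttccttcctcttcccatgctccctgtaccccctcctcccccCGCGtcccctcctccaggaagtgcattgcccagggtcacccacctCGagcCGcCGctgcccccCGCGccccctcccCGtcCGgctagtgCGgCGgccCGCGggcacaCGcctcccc
Foxp1: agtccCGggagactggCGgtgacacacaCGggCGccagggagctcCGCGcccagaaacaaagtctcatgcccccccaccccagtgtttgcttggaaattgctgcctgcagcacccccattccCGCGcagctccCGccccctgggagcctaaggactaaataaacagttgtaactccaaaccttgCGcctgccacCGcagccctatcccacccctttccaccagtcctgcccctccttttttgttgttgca
The peak over the inner start of Arap1, a regulator of small GTPases, had 3 and 45 counts in 5hmC replicates 1 and 2, at a mean RNA level of 392 CPM. That of St6gal1, a sialyltransferase, had 6 and 40 counts (111 CPM), and that of Fblim1, a filamin-binding adhesion protein, 15 and 76 (72.2 CPM). The peak at Csf2ra, the alpha chain of the GM-CSF receptor, had 7 and 31 (196 CPM). 

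The genes with the most peaks were long and transcribed. Lpp, a focal adhesion scaffold of 599 kb (chromosome 16, 24393350 to 24992578), had 14 peaks with 84 and 401 counts in 5hmC replicates 1 and 2. Its RNA was at 84.6, 102 and 174 CPM in RNA replicates 1, 2 and 3. Foxp1, a forkhead transcription factor of 597 kb, had 11 peaks with 41 and 318 counts and RNA at 86.7, 157 and 92.3 CPM. All 3 RNA libraries held Lpp and Foxp1 at over 80 CPM. Tns3, a tensin that links integrins to actin, had 10 peaks in 233 kb with 64 and 329 counts, and RNA at 605, 572 and 361 CPM. Atxn1 and Fndc3b had 9 peaks each, and Prkch (a protein kinase C), App (the amyloid precursor protein) and Arhgap26 had 8 each. Of these 8 genes Arhgap26 was lowest in RNA, at 17.7, 32.8 and 10.8 CPM, with its 8 peaks spread over 775 kb.

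The genes with the highest 5hmC per kb, among those of at least 5 kb with at least 2 peaks, were short. Slc11a1, the phagosomal metal transporter also called NRAMP1, spans 11 kb on chromosome 1 (74375014 to 74386057) and had 2 peaks with 26 and 119 counts. Its RNA was at 622, 331 and 130 CPM. Ddit3, the stress transcription factor CHOP, had 2 peaks in 5.50 kb with 10 and 40 counts and RNA at 20.03, 19.3 and 75.3 CPM. RNA of Slc11a1 was highest in replicate 1 and that of Ddit3 in replicate 3, so the level of both varied between libraries. Cd40, the costimulatory receptor, had 3 peaks in 16.0 kb with 16 and 105 counts at 1.31, 13.4 and 17.2 CPM. Gusb (the lysosomal beta-glucuronidase), Nfil3 (a basic leucine zipper transcription factor) and Alox5ap (needed for leukotriene synthesis) had 2 peaks each, as did Anapc15, with 1 or more of them shared with Tomt, and Bach2os, whose peaks are shared with Bach2. Reads under shared peaks cannot be assigned to 1 of the overlapping genes.

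Among the most abundant RNAs with at least 2 peaks, Lrp1 came first, at 4740, 5008 and 2093 CPM. This gene of a receptor that takes up apoptotic cells and lipoproteins spans 83.0 kb and had 4 peaks with 35 and 245 counts. Sirpa, the receptor for CD47, was at 3731, 3018 and 2127 CPM with 3 peaks (24 and 143 counts). Lipa, the lysosomal acid lipase, was at 3585, 1729 and 780 CPM with 2 peaks (10 and 73 counts). The other 5 by this order were the cytoskeletal genes Tln1, Iqgap1 and Plec, the lipid transfer gene Osbpl8 and the splicing regulator Mbnl1, with 2 to 4 peaks each.

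High RNA did not always come with 5hmC. Myo1f, a myosin of leukocytes, was at 1505, 976 and 578 CPM over 52.1 kb and had no listed peak. Dync1h1, the heavy chain of cytoplasmic dynein, was at 850, 1179 and 890 CPM over 65.5 kb, also with none. Cybb and Lamp2, both on chromosome X, were at 1049, 982 and 509 CPM and at 587, 568 and 593 CPM without a peak. Gsn, Myof, Adcy7 and Actr2 complete the 8 most abundant RNAs among genes of at least 50 kb with no peak. Of the 84 genes of at least 200 kb and 100 CPM, the 7 without a peak, named after their values were seen, were Dst, Ppm1h, Fbn1, Kmt2c, Akap13, Gab2 and Stag1. Fbn1, the matrix protein fibrillin-1, was at 0.968, 0.643 and 415 CPM. It reached the bin through RNA replicate 3 alone, the library with stromal RNA.

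The reverse was also seen. Musk, a receptor kinase of the neuromuscular junction, had 3 peaks in 92.1 kb with 18 and 103 counts, and RNA at 0, 0 and 0.106 CPM. Ninj2 had 3 peaks with 21 and 89 counts at 0, 0 and 0.0177 CPM. Fshr, the follicle-stimulating hormone receptor, had 3 peaks with 5 and 52 counts and no RNA count in any library. Ninj2 and Fshr lay under the limit that a count of 0 allows in all 3 libraries, while Musk was above it in replicate 3. Megf11 and Aox2 also had 3 peaks and Slc10a6 and Dlgap1 had 2, all at a mean under 0.1 CPM. Of the Aox2 peaks, 1 or more were shared with the predicted gene Gm15759. Bach2, a transcriptional repressor of lymphoid and myeloid cells, had 8 peaks with 37 and 208 counts at 1.59, 1.67 and 1.10 CPM.

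Genes on chromosome X had few listed 5hmC peaks at like RNA levels. Sex is not given in the sources. RNA of chromosome Y was present: 4 Y-linked genes of at least 20 kb were at a mean of at least 10 CPM. Such RNA comes from male cells, which hold 1 X. Whether each library was male was not examined. The number of X copies per cell was thus not established for all libraries, and values were not adjusted for it. Of 153 X-linked genes of at least 20 kb and 10 CPM, 14 (9.15%) had a peak, against 2053 of 4983 autosomal genes (41.2%). Across the 19 autosomes the share ran from 31.6% (chromosome 9) to 47.2% (chromosome 10), so X lay outside their range. 5hmC per kb was 0.00794 and 0.00955 on X and 0.112 and 0.118 on autosomes, 14.1-fold and 12.3-fold apart. The shares were 9.93% (15 of 151) and 42.1% without RNA replicate 3. Median gene length was 54.4 kb on X and 48.4 kb on autosomes. The 53 peaks on X had a median of 3 and 15 counts, against 4 and 23 over all 8000 peaks.

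Gene lists that cover the functions of these cells were set against the background of 10% of all genes with 5hmC, 4.66 peaks per Mb, and 0.0550 and 0.0577 counts per kb. The median length of all genes was 7.44 kb, so a higher share in a list of longer genes does not by itself show enrichment. In macrophage identity genes, 7 of 22 had a peak at list medians of 455 CPM and 19.3 kb. Of all genes at 100 CPM and above, 13.5% had a peak at 5 to 20 kb and 33.5% at 20 to 50 kb. Lyz2 had 1 peak with 46 and 61 counts at 13082, 8868 and 9783 CPM, and Ptprc (the leukocyte phosphatase CD45) had 2 with 14 and 72 counts. Adgre1, which encodes F4/80, had 1 with 6 and 38 counts at 1321, 3085 and 805 CPM. Csf1r, the receptor for M-CSF, had none at a mean of 1757 CPM. The list held 0.273 and 0.170 counts per kb, the largest absolute gap between replicates among the 18 lists, and it contains the Lyz2 peak.

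Among myeloid transcription factors 15 of 26 had 5hmC, at list medians of 112 CPM and 33.9 kb. For comparison, 33.5% of all genes of 20 to 50 kb at 100 CPM and above had a peak. Mitf, a driver of osteoclast genes, had 6 peaks with 27 and 147 counts at 184, 146 and 82.8 CPM. Runx1, a regulator of blood development, spans 225 kb on chromosome 16 (92601466 to 92826074) and had 5 peaks with 21 and 158 counts at 117, 154 and 94.8 CPM. Zeb2 had 3 peaks with 16 and 72 counts at 803, 928 and 511 CPM, and Spi1, which encodes PU.1, had 1 with 5 and 35. The short genes Maf, Cebpa and Cebpb had none at means of 275, 134 and 113 CPM. Of 22 osteoclast genes 5 had a peak, led by Nfkb1 (4 peaks, 18 and 93 counts) and Nfatc1, the master factor of osteoclast formation (3 peaks, 15 and 105 counts, at 45.9, 70.8 and 30.9 CPM). The list medians were 23.4 kb and 39.3 CPM, and 24.9% of all genes of 20 to 50 kb from 10 to 100 CPM had a peak.

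The enzymes that make 5hmC and the genes of the methylation machinery carried it in 8 of 28 cases (28.6%). At the class of the list medians (20 to 50 kb, 10 to 100 CPM), 24.9% of all genes had a peak. Tet1, Tet2 and Tet3 had 1 peak each, and the 3 genes are of like length (82.9, 81.5 and 94.8 kb). Tet3 RNA was at 175, 218 and 61.9 CPM with 6 and 27 counts in its peak. Tet2 RNA was at 86.2, 144 and 41.6 CPM with 3 and 18 counts. Tet1 RNA was at 0.171, 0.175 and 0.426 CPM, and its peak had 1 and 16 counts. Tet1 RNA was thus at the limit that a count of 0 allows in replicate 1 and above it in replicates 2 and 3, and the counts of the Tet1 and Tet2 peaks differ by no more than counting error. Dnmt3a, a de novo DNA methyltransferase, had 3 peaks with 18 and 105 counts at 630, 322 and 179 CPM, with 1 or more of them shared with the antisense gene Dnmt3aos.

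Many signalling genes had a peak. In phosphoinositide and kinase signalling 23 of 30 genes had a peak, at a list median of 146 CPM and 79.6 kb. Prkch had 8 peaks with 49 and 281 counts, and Rptor, the mTORC1 scaffold, had 7 with 63 and 353 at 75.2, 105 and 69.1 CPM. In Toll-like receptor and NF-kappaB signalling 12 of 29 genes had a peak, and at 0.305 and 0.318 counts per kb this list was the highest of the 18 in both libraries. Irak3, a brake on Toll-like receptor signalling, had 4 peaks with 27 and 150 counts at 17.9, 84.2 and 18.7 CPM. In actin, adhesion and podosome genes 15 of 30 had a peak, among them the leukocyte migration genes Elmo1 (6 peaks) and Dock2 (5 peaks). Of the Dock2 peaks, 1 or more were shared with Insyn2b. Chromatin regulators had 14 of 30, with 0.0701 and 0.0739 counts per kb, close to the value of all genes. For comparison, the share with a peak among all genes was taken in the class of each list's medians. It was 58.4% (50 to 100 kb, 100 CPM and above) for the kinase and actin lists. For chromatin regulators it was 39.3% (50 to 100 kb, 10 to 100 CPM). For the Toll-like receptor list it was 24.9% (20 to 50 kb, 10 to 100 CPM). Members spread over several classes, so these shares are a rough guide and enrichment was not tested.

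Lysosomal genes, the list with the highest median RNA level (499 CPM), had a peak in 9 of 26 cases (34.6%). The list median length was 21.9 kb, and 33.5% of all genes of 20 to 50 kb at 100 CPM and above had a peak. Psap, the saposin precursor, was at 28347, 6417 and 6031 CPM with 1 peak of 13 and 61 counts, while the cathepsin genes Ctsd and Ctsb, at means of 13312 and 11257 CPM, had none. In cholesterol synthesis 7 of 24 genes had 1 peak each, with 15 and 47 counts for Sqle (squalene epoxidase). In the cell cycle 6 of 30 genes had a peak, and their RNA differed widely between libraries. Bub1b, a spindle checkpoint kinase, was at 8.14, 151 and 86.1 CPM with 2 peaks of 13 and 96 counts. The shares were 5 of 26 for interferon-stimulated genes and 4 of 24 for inflammatory mediators, led by Nlrp3, the inflammasome sensor, with 2 peaks of 15 and 74 counts at 26.9, 73.8 and 128 CPM. Medians of the cholesterol, cell cycle and interferon lists fall at 5 to 20 kb and 10 to 100 CPM, where 10.8% of all genes had a peak. For inflammatory mediators the class was 5 to 20 kb and 1 to 10 CPM, at 8.09%. Enrichment of these lists was not tested.

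Abundant RNA of short genes often came without 5hmC. Cytosolic ribosomal protein genes had a median of 454 CPM and 3.88 kb, and 1 of 26 had a peak: Rps3, with 4 and 22 counts, under a peak shared with the small nucleolar RNA gene Snord15b. Per kb this list held 0.0876 and 0.0932 counts, above all genes, on that peak alone. Nuclear oxidative phosphorylation genes had a median of 97.6 CPM and 11.5 kb, and 1 of 24 had a peak, Ndufa4, with 3 and 21 counts. For comparison, 4.69% of all genes under 5 kb at 100 CPM and above had a peak (10 of 213), and 10.8% of those of 5 to 20 kb from 10 to 100 CPM. The ribosomal share of 3.85% is thus near that of genes of like length and level.

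The lists with the least RNA were low in 5hmC per kb. In 2 of the 3 the share with a peak equalled the 10% of all genes, but all genes have a median length of only 7.44 kb. Long neuronal genes had a median of 1142 kb and 0.0118 CPM, and 3 of 30 had a peak, with 0.00266 and 0.00246 counts per kb, the lowest of the 18 lists in both libraries. Among the 3, Magi2, a synaptic scaffold, had 7 peaks with 30 and 143 counts at 1.31, 1.34 and 1.56 CPM. Of all genes of at least 200 kb, 39.8% had a peak. That share was 6.63% with no RNA count and 15.4% above 0 and under 0.1 CPM. HOX and homeobox genes had 1 of 28 and neuronal and glial markers 1 of 10. The latter was Mbp, which also encodes transcripts of blood cells and was at 114, 109 and 72.1 CPM. Lists differ in gene length and in number of genes, and several rest on 1 peak, so their values per kb carry a large counting error.

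**Figure D5:**
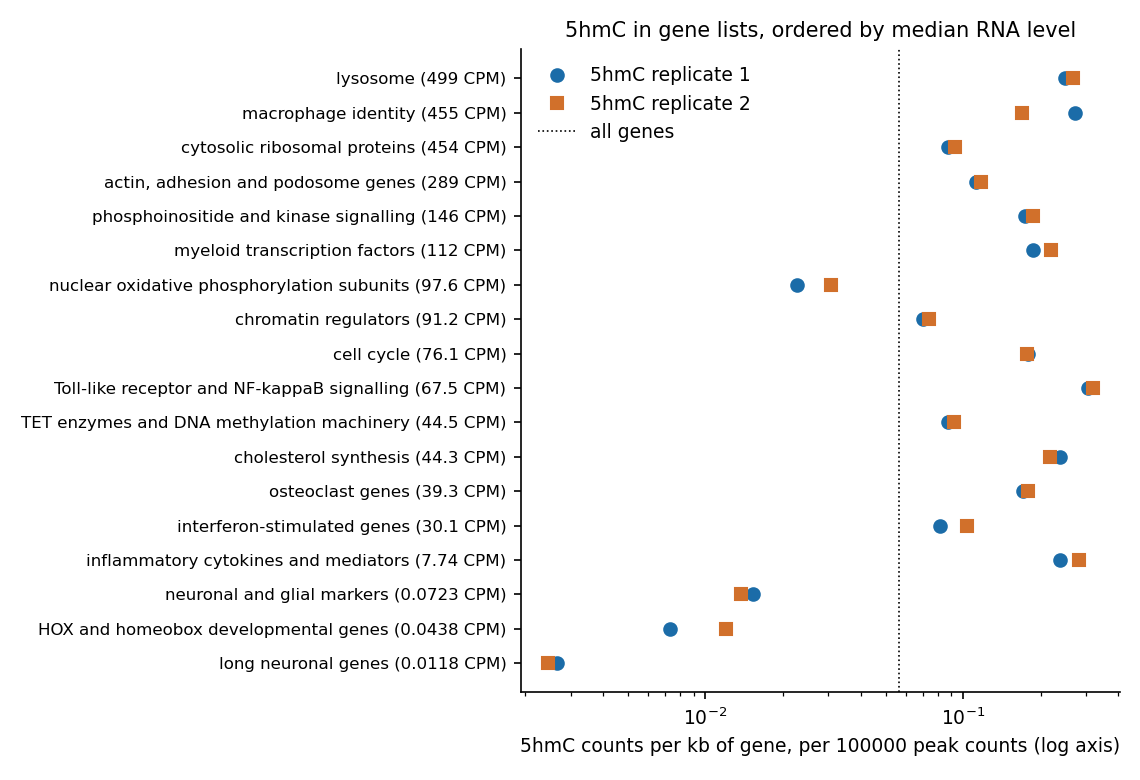
5hmC counts per kb of gene, per 100000 counts in wild-type peaks (x axis, log scale), in 18 gene lists ordered by the median of their mean CPM (y axis, median in parentheses), for 5hmC replicate 1 (circles) and replicate 2 (squares). The dotted line is the mean of both libraries over all genes, 0.0564; the 3 lists with the lowest median CPM and the oxidative phosphorylation list lie to its left and the other 14 to its right.

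Not all 5hmC peaks lay in the bodies of the 35122 genes with a position. Of the 8000 wild-type-named peaks, 5159 (64.5%) overlapped at least 1 such body and 2841 overlapped none. Genic peaks held 60.9% and 63.8% of the counts. The bodies together span 1109 Mb, and their share of the genome was not computed, so 64.5% does not by itself show enrichment. Peaks in genes without a position count as outside, as do 15 peaks off chromosomes 1 to 19, X and Y. Of the genic peaks 160 overlapped at least 2 genes and were counted for each. The median count was 4 in both sets in replicate 1, and 23 in genes and 22 outside them in replicate 2. The highest counts lay outside these gene bodies, with up to 734 and 920 against up to 46 and 140 inside them. Those of 734 and 920 were in peaks named for both genotypes. Peaks named for wild type only reached 26 and 104 counts. The 2 maxima were also closer to each other than the medians of the 2 libraries. Whether such extreme peaks reflect 5hmC was not tested.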

How the data were processed

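The authors deposited raw read counts, per gene for RNA and per peak for 5hmC. Build GRCm38 and the tools BWA, STAR, HTSeq, MACS2, Trim Galore and CASAVA 1.4 are named by the submitters' processing notes. What each tool was used for, the strand setting and the rule behind the listed peaks are not given in the sources. The RNA table pairs Ensembl IDs with counts: 47224 of 47731 IDs had a symbol, and 35122 genes had a RefSeq position on GRCm38.p6 (strand for 19745). Counts were scaled to CPM per library and averaged. A peak was assigned to each gene body it overlapped by at least 1 base, and 5hmC was scaled to 100000 counts in wild-type-named peaks per library. There are no groups to compare, so no test was run. SDs of shares are over bins made from each of 3 RNA libraries, around the mean of those 3 shares, and Poisson intervals are exact (95%). The 2 5hmC libraries differed by more than sampling noise (1.20 as the ratio of chi-square to its degrees of freedom) and were kept apart. This ratio includes the highest peaks and was not recomputed without them. Without the 20 highest peaks and unplaced contigs, the SD of 5hmC per kb between libraries fell from 0.00460 to 0.000572 in the top bin. In the bin above 0 and under 0.1 CPM alone it rose, from 0.000222 to 0.000363. The assignment was checked on simulated peaks.

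The text names Runx1 and the 3 Tet genes, then up to 8 each by most peaks, highest 5hmC per kb (at least 5 kb, 2 peaks and 20 counts), highest CPM with at least 2 peaks, highest CPM without a peak (at least 50 kb), and most peaks under 0.1 CPM. Up to 4 members per list with the most peaks were added, and predicted genes were left out of these rules except for the lists. Other list members, the genes with a printed sequence and the long genes without a peak were chosen after their values were seen. Some genes that the rule names are left out of the text. The members, bins and lists were all chosen with earlier results of these data known. Marker lists other than macrophage and stromal summed to at most 211 CPM in any library: endothelial 211, 72.7 and 109, granulocyte and mast cell 103, 10.4 and 7.23, megakaryocyte and erythroid 15.0, 23.4 and 133, T and NK cell 31.8, 6.50 and 8.17, B cell 0.911, 2.96 and 16.2, and dendritic cell 3.87, 4.32 and 2.18 in RNA replicates 1, 2 and 3. Scripts ran in Python 3.11.15 with pandas 2.3.3, NumPy 2.4.6 and SciPy 1.17.1, and in R 4.3.3 with edgeR 4.0.16 for TMM scaling.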

Additional observations from a re-analysis of the deposited data

How the results depend on the processing

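Share and 5hmC per kb were recomputed under 17 alternatives, 16 planned and 1 (without the 20 highest peaks and peaks on unplaced contigs) chosen after seeing the data. Both measures stepped upward between all neighbouring bins in each of them, except that 5hmC per kb rose in 3 of 4 steps among genes with at least 10 RNA counts. With genes of a mean of at least 0.1 CPM split by rank into 10 equal bins, and all others left out, both rose in 9 of 9 steps. In the lowest and highest bins, the values that moved by more than the replicate SD were these. With the gene body widened by 2 kb, the share was 1.55% in genes with no RNA count and 39.1% at 100 CPM and above, and 5hmC per kb in the former was 0.00920. In genes of at least 20 kb the shares were 4.44% and 51.1%, and 5hmC per kb with no RNA count was 0.00552. With peaks named for wild type only, the top share was 33.7% and 5hmC per kb was 0.00836 with no RNA count and 0.165 in the top bin. With no RNA count, 5hmC per kb was 0.00449 in protein-coding genes and 0.00488 with peaks that lie in exactly 1 gene. In the top bin it was 0.170 for the highest of the 10 rank bins and 0.167 without the 20 highest peaks and unplaced contigs. Leaving out 1 library at a time gave shares of 0.992% to 1.45% and 35.7% to 37.8% in these 2 bins, and 5hmC per kb of 0.00673 to 0.00849 and 0.155 to 0.162. In the 4 bins between, from low to high CPM, 6, 9, 4 and 5 of 16 alternatives moved the share by more than its SD and 12, 8, 9 and 4 moved 5hmC per kb. In these bins 5hmC per kb ranged over 0.0133 to 0.0303, 0.0216 to 0.0385, 0.0358 to 0.0554 and 0.0919 to 0.101, with the highest value from 1 to 10 CPM without RNA replicate 3. The median CPM of genes without a peak ranged from 0 to 9.58, the latter among genes with at least 10 counts. The rho of CPM and 5hmC per kb over all genes stayed between 0.244 and 0.356. Over genes with a peak it changed sign to -0.0617 with widened gene bodies, and its range over all alternatives reached 0.176. The cause of these shifts was not tested. CPM per kb of exon was not run, since exon lengths were not used here, and no value for genes with no RNA count exists in the rank bins or with a minimum of 10 counts. No paired analysis was possible because 1 genotype was described and no groups were compared. With a median of 4 counts per peak, 5hmC replicate 1 limits single peaks and genes, and values of single genes rest mainly on replicate 2.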
